A study of Rattus norvegicus with 18 samples.

Results

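The genes described here are 31 genes of inhibitory signalling in rat brain: subunits of the GABA-A and GABA-B receptors, the genes that make, load, take up and break down GABA, and the peptides, calcium-binding proteins and transcription factors by which interneurons are told apart. They were taken by symbol from a deposited table of read counts that lists 34873 genes, and each of the 31 symbols matched 1 row. Of the 31, 28 had enough counts to enter the test across genes. Gabra6, Gabrq and Npy did not.

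GABA is the main inhibitory transmitter of the adult brain. GABA-A receptors are pentameric chloride channels whose subunit make-up helps to set where they sit. Receptors at synapses mostly contain a gamma subunit, and delta-containing receptors lie outside synapses. GABA-B receptors are obligate dimers of Gabbr1 and Gabbr2 that act through G proteins. Interneurons of the forebrain arise from progenitors that use Dlx genes and, in the medial ganglionic eminence, Lhx6, and mature cells are sorted by markers such as parvalbumin, somatostatin, Vip, cholecystokinin and calretinin.

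RNA sequencing covered 18 libraries from the brain of rats in 3 groups of 6. The CLCF1 group carries the genotype label CLCF1 knock-down and inhaled carbon monoxide (CO), the CO group is wild type and inhaled CO, and the NC group is wild type with no treatment given. CO poisoning was 1000 ppm for 40 min and then 3000 ppm for 20 min, with carboxyhaemoglobin above 60%. The design text places the knock-down in bone marrow-derived macrophages treated with shRNA lentivirus, which were given to rats whose own macrophages had been targeted with liposomes. It does not say whether CO and NC rats had liposomes or macrophages too. Brain region, time after exposure, age, sex and strain are not stated, and nothing says that the 6 libraries of a group are 6 animals, so p-values measure the spread between libraries only.

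Depth was 15.1 to 20.3 M counts a library. Clcf1, the cytokine gene named by the knock-down, had 0 to 3 counts in CLCF1 libraries, 80 to 118 in CO libraries and 1 to 7 in NC libraries. Its log2 fold change was -6.67 in CLCF1 against CO (edgeR adjusted p = 9.00e-07), 5.19 in CO against NC (7.46e-06) and -1.49 in CLCF1 against NC, which did not pass. Of 16581 genes tested, 12.7% passed in CO against NC, 17.0% in CLCF1 against CO and 9.26% in CLCF1 against NC. Pan-neuronal genes, 8 in all, summed to 5044 to 5767 CPM (counts scaled to the size of the library) in CLCF1, 5505 to 5897 in CO and 4426 to 4966 in NC libraries, so neuronal RNA was present in every library.

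Libraries 3 to 6 of each group stood apart from libraries 1 and 2. Of 42660 cases, over the 3 groups, of a gene at 0 in both libraries 1 and 2, 0 had a count in libraries 3 to 6 of the same group. Of the same genes, 6.17% to 11.9% had counts in libraries 1 and 2 of another group, taking each other group by itself. The ratio of counts was taken for genes that inhibitory neurons use together. That of Gad1 to Gad2 ran from 1.02 to 1.60 in the 6 libraries numbered 1 or 2, a span of 1.57-fold, and from 0.493 to 2.95 in the 12 numbered 3 to 6, a span of 5.98-fold. For the neighbouring genes Dlx1 and Dlx2 the spans were 2.96-fold and 9.18-fold, and for Gad1 and the vesicle transporter gene Slc32a1 1.77-fold and 6.86-fold, with libraries 1 and 2 first. A span widens with the number of libraries, and the difference in spread was not tested. Fold changes that passed are given for all 18 libraries and, beside them, for libraries 1 and 2 alone. Whether libraries 3 to 6 are independent of libraries 1 and 2 is not known. The SE and p-values from all 18 libraries treat them as independent. What sets libraries 3 to 6 apart was not tested.

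**Figure D1:**
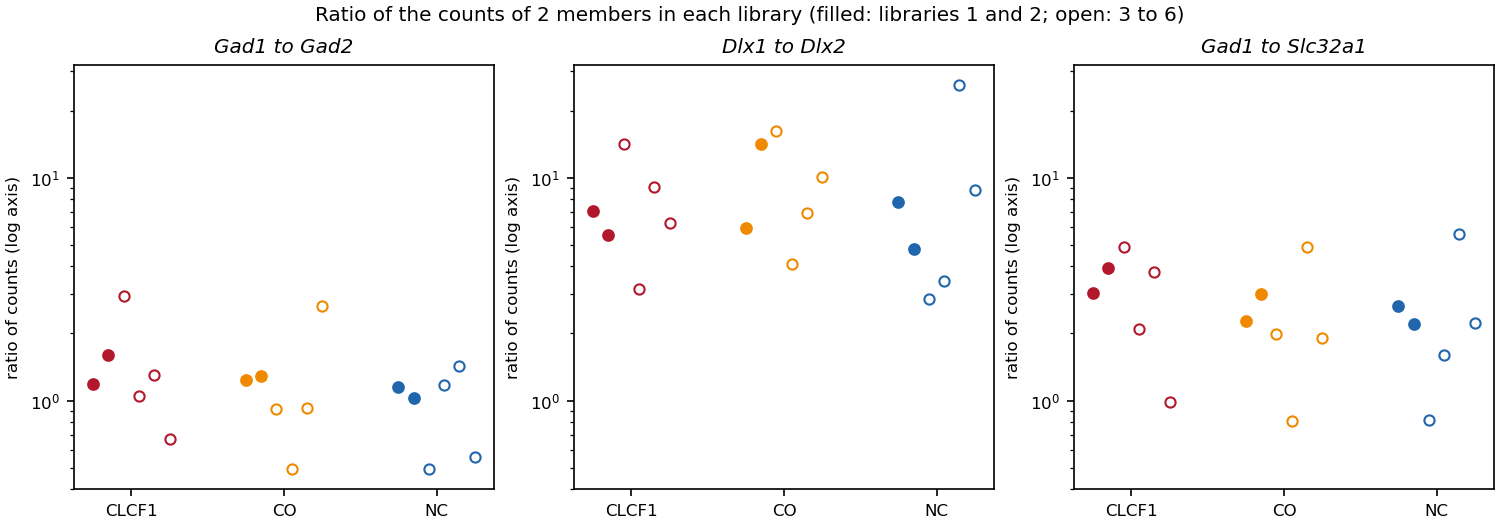
Ratio of the counts of Gad1 to Gad2, Dlx1 to Dlx2 and Gad1 to Slc32a1 in every library (log axis), by group; filled points are the 6 libraries 1 and 2, open points the 12 libraries 3 to 6. Gad1 to Gad2 lies between 0.493 and 2.95 in the open points and between 1.02 and 1.60 in the filled points.

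Across the 28 genes tested and 3 comparisons, 13 of 84 fold changes passed at an adjusted p of 0.05, in 10 genes. In CO against NC, 2 of 28 passed (7.14%, against 12.7% of all genes), both higher, where 6.32% of all genes were higher and 6.40% lower. In CLCF1 against CO, 5 of 28 passed (17.9%, against 17.0% of all genes), 2 higher and 3 lower, where 8.63% of all genes were higher and 8.34% lower. In CLCF1 against NC, 6 of 28 passed (21.4%, against 9.26% of all genes), 5 higher and 1 lower, where 4.43% of all genes were higher and 4.84% lower. The first share was under that of all genes, the second near it and the third above it. The median log2 fold change of the 28 was 0.09, 0.06 and 0.09 in these comparisons, against 0.0066, 0.0018 and 0.011 for all genes tested. With libraries 1 and 2 alone, edgeR passed 0 of 29 in each comparison, where 0.0238%, 0.0476% and 0.0119% of all genes passed. At an unadjusted p under 0.05 those libraries gave 1 gene in CO against NC (Gabrd), 1 in CLCF1 against CO (Reln) and 0 in CLCF1 against NC. All 13 fold changes that passed with 18 libraries had the same sign in libraries 1 and 2. Those libraries are among the 18 that gave the calls, so the shared sign is not a separate test of them. The comparisons share libraries with each other, the CO group serving in the first and second, so a level particular to CO libraries enters both.

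**Figure D2:**
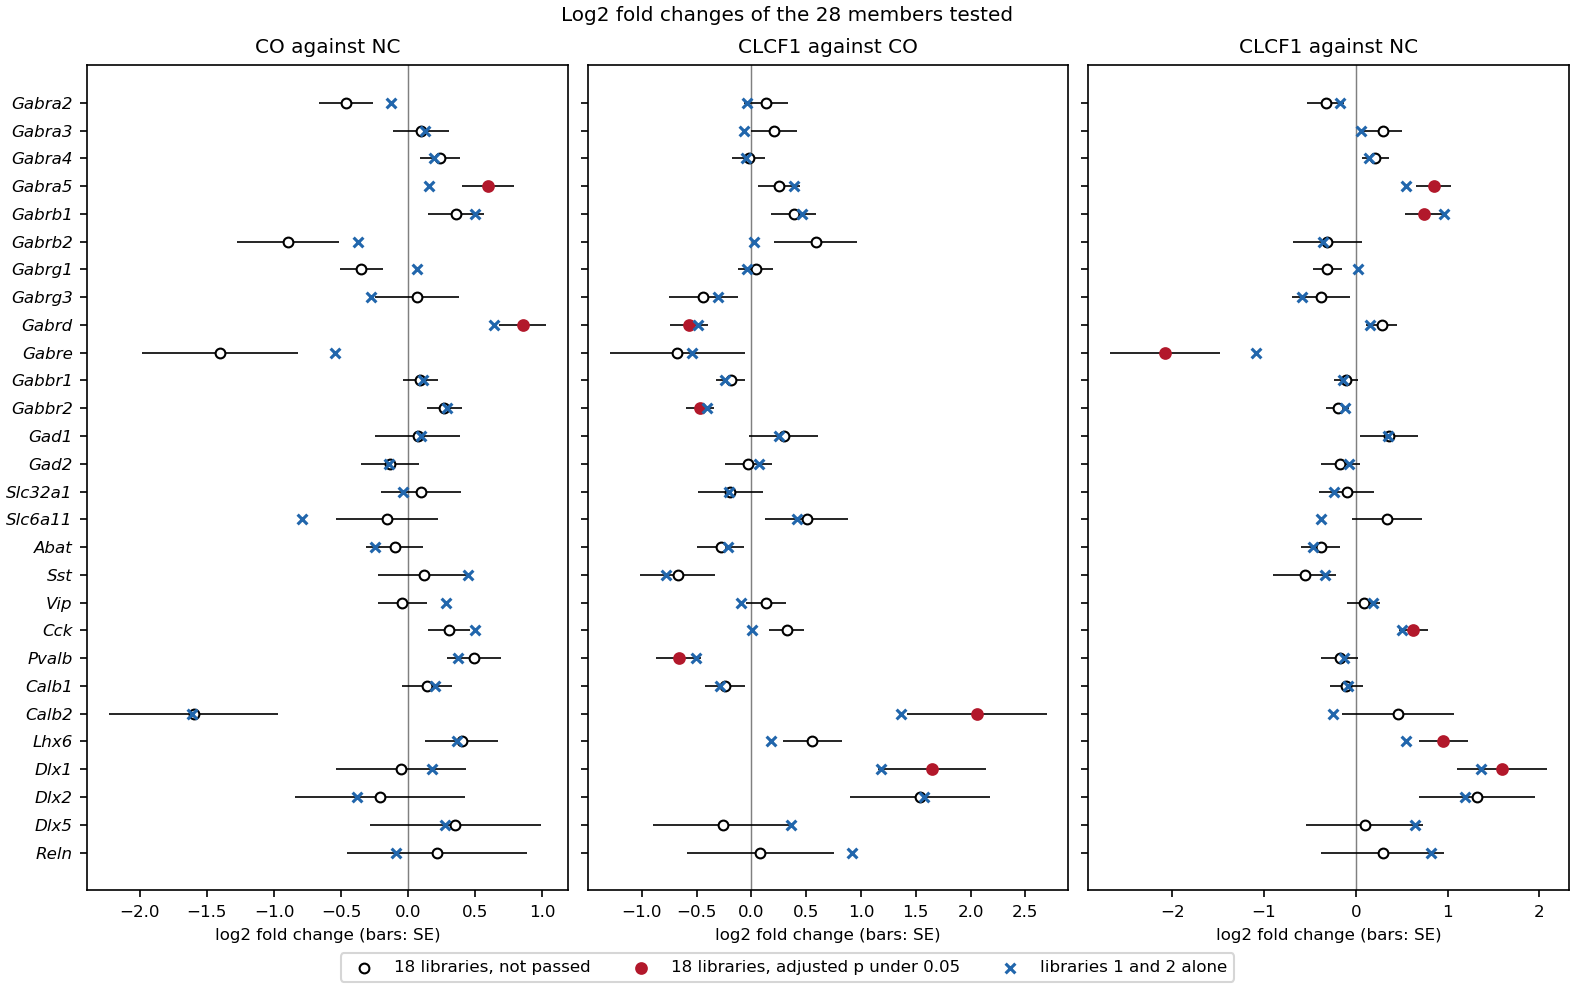
Log2 fold change of each of the 28 genes tested in the 3 comparisons (circles with SE bars, 18 libraries; filled red where the edgeR adjusted p was under 0.05; blue crosses, libraries 1 and 2 alone). Most circles lie near 0, and the widest bars belong to Calb2, Reln, Dlx2, Dlx5 and Gabre.

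Among GABA-A receptor subunits, 12 were listed and 10 tested: 2 rose in CO against NC (20%, against 12.7% of all genes in either direction), 1 fell in CLCF1 against CO (10%, against 17.0%), and 2 rose and 1 fell in CLCF1 against NC (30%, against 9.26%). Gabrd, the delta subunit of extrasynaptic receptors, gave the smallest adjusted p among the 28 genes tested. In CLCF1 libraries Gabrd had 36.7 CPM at the lowest, 57.7 at the median and 88.4 at the highest, in CO libraries 74.9, 83.0 and 124, and in NC libraries 44.4, 48.4 and 58.4. Every CO library lay above every NC library, while CLCF1 and CO libraries overlapped. Gabrd rose in CO against NC by a log2 fold change of 0.85 ± 0.17 (SE, edgeR adjusted p = 0.00492), and this held whichever library was left out. The groups were also separate in libraries 1 and 2, where the means were 83.1 CPM in CO and 52.9 CPM in NC and the log2 fold change was 0.64 ± 0.27 (edgeR adjusted p = 0.999). In CLCF1 against CO, Gabrd fell by a log2 fold change of -0.57 ± 0.17 (edgeR adjusted p = 0.0289). That call was lost without CO library 5 or any of CLCF1 libraries 2, 3, 4 and 5 (adjusted p 0.0502 to 0.0638) in libraries 3 to 6 alone (0.122), and with only CLCF1 and CO libraries in the fit (0.0662). In libraries 1 and 2 its value was -0.49 ± 0.27. CLCF1 against NC gave 0.28 ± 0.17 and did not pass. In bulk tissue, fewer cells of a type and less RNA per cell cannot be told apart.

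Gabra5 encodes the alpha5 subunit, known for its high level in hippocampus and for extrasynaptic receptors. It had 90.8, 114 and 140 CPM in CLCF1 libraries (lowest, median, highest), 67.9, 100.2 and 120 in CO libraries, and 35.6, 65.2 and 81.3 in NC libraries. All CLCF1 libraries lay above all NC libraries, and CO libraries overlapped with both groups. Gabra5 rose in CLCF1 against NC by a log2 fold change of 0.85 ± 0.19 (edgeR adjusted p = 0.0103), which no left-out library ended, with 0.54 ± 0.25 in libraries 1 and 2, where the groups were also separate. In CO against NC it rose by 0.59 ± 0.19 (edgeR adjusted p = 0.0469), with 0.16 ± 0.25 in libraries 1 and 2. This call was lost in 11 of the 18 fits that left out 1 library: without NC 2, 3, 4 or 6, CO 1, 3, 4 or 6, or CLCF1 2, 4 or 6 (adjusted p 0.0530 to 0.0962). It was also lost with scaling by library size alone (0.0610), the stricter filter (0.0593), limma-voom (0.0566), only the CO and NC libraries in the fit (0.0813) and libraries 3 to 6 alone (0.0817). CLCF1 and CO were not shown to differ (0.25 ± 0.19).

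Gabrb1 and Gabre passed in CLCF1 against NC alone among the 3 comparisons. Gabrb1, a beta subunit, had 5.17, 7.35 and 10.0 CPM in CLCF1 libraries, 4.32, 5.56 and 7.63 in CO libraries and 3.18, 5.00 and 5.42 in NC libraries. The lowest CLCF1 library lay under the highest NC library, so the groups overlapped. It rose by a log2 fold change of 0.74 ± 0.21 in CLCF1 against NC (edgeR adjusted p = 0.0308), with 0.96 ± 0.43 in libraries 1 and 2, and was lost without NC 1 or 5 or CLCF1 1 or 5 (adjusted p 0.0607 to 0.0718) and in libraries 3 to 6 alone (0.250). Gabre, the epsilon subunit, was near the lowest level that could be tested, at 3 to 12 counts in CLCF1, 0 to 27 in CO and 17 to 67 in NC libraries. In CPM these were 0.161, 0.434 and 0.584 in CLCF1, 0, 0.443 and 1.61 in CO, and 0.954, 1.29 and 3.77 in NC. CLCF1 and NC libraries did not overlap, and NC library 6 stood far above the other NC libraries. Gabre fell by a log2 fold change of -2.08 ± 0.60 in CLCF1 against NC (edgeR adjusted p = 0.0354), with -1.09 ± 1.39 in libraries 1 and 2. It was lost without NC 3 or 6 or CLCF1 3, 4, 5 or 6 (adjusted p 0.0508 to 0.0904) and with limma-voom (0.0537), and the stricter filter left it untested. In CO against NC its value was -1.40 ± 0.58 (edgeR adjusted p = 0.114), which passed without CO library 1 (-1.96, adjusted p 0.0388) and was -0.55 ± 1.37 in libraries 1 and 2.

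The other 6 subunits tested passed in no comparison. Gabra4, the subunit that pairs with delta in thalamus, hippocampus and striatum, averaged 149 ± 17.6 CPM in CLCF1, 151 ± 35.7 in CO and 128 ± 25.0 in NC libraries (SD, n = 6 each). Gabrg1 averaged 37.5 ± 8.76 CPM in CLCF1, 36.4 ± 5.59 in CO and 46.4 ± 8.66 in NC. Gabra2 averaged 49.2 ± 18.4 CPM in CLCF1, 44.7 ± 6.38 in CO and 61.8 ± 11.1 in NC, with -0.46 ± 0.20 in CO against NC (edgeR adjusted p = 0.129) and -0.13 ± 0.22 in libraries 1 and 2. Gabra2 passed in that comparison only when the CLCF1 libraries were left out of the fit (adjusted p 0.0488). Gabra3 stayed between 25.3 and 69.6 CPM and Gabrg3 between 0.775 and 3.30 CPM over the 18 libraries. Gabrb2, a common beta subunit, ranged from 4.89 to 36.7 CPM and had -0.90 ± 0.38 in CO against NC (edgeR adjusted p = 0.122), which passed without CO library 2 (-1.20, adjusted p 0.0435) and was -0.37 ± 0.83 in libraries 1 and 2. In all 6 genes the 3 groups overlapped.

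Gabra6, Gabrq and Npy fell below the filter on low counts. Gabra6, which is known for cerebellar granule cells, had 2 to 18 counts in CLCF1 libraries, 6 to 8 in CO and 0 to 3 in NC. Without the filter, edgeR gave Gabra6 a log2 fold change of 2.15 ± 0.55 in CO against NC (adjusted p = 0.0118) and 2.21 ± 0.54 in CLCF1 against NC (adjusted p = 0.00929), and DESeq2 passed both. Over all genes, edgeR without the filter passed 4291 of 22634 in CO against NC and 4292 of 22634 in CLCF1 against NC. DESeq2 passed 4081 and 3844 of 22610 in these comparisons. Gabrq, the theta subunit, had 0 to 5 counts in CLCF1, 4 to 22 in CO and 3 to 50 in NC, and without the filter its CLCF1 against NC value was -2.62 ± 0.77 (edgeR adjusted p = 0.0240). Npy, the neuropeptide Y gene that many somatostatin cells express, had 0 to 2 counts in CLCF1, 1 to 5 in CO and 0 to 3 in NC, while its neighbour on the list of peptides, Sst, had 907 to 6096 counts in CLCF1 libraries.

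Several of these subunit genes lie in clusters, as the table's own coordinates show; no build is stated for them. On chromosome 14, Gabrb1, Gabra4, Gabra2 and Gabrg1 follow each other with gaps of 41.9, 430.3 and 166.3 kb. In CLCF1 against NC the log2 fold changes of these 4 were 0.74, 0.21, -0.33 and -0.31, and only Gabrb1 passed. On chromosome 1, Gabra5 lies 397.2 kb from Gabrg3, whose fold change in the same comparison was -0.38 ± 0.31, against 0.85 ± 0.19 for Gabra5. On the X chromosome, Gabre, Gabra3 and Gabrq are separated by 177.3 and 210 kb, and Gabra3 had 0.30 ± 0.21 in CLCF1 against NC. On chromosome 10, Gabrb2 lies 110.8 kb from Gabra6, which was not tested, and Gabrb2 had -0.31 ± 0.37 in CLCF1 against NC and did not pass (edgeR adjusted p = 0.653).

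**Figure D3:**
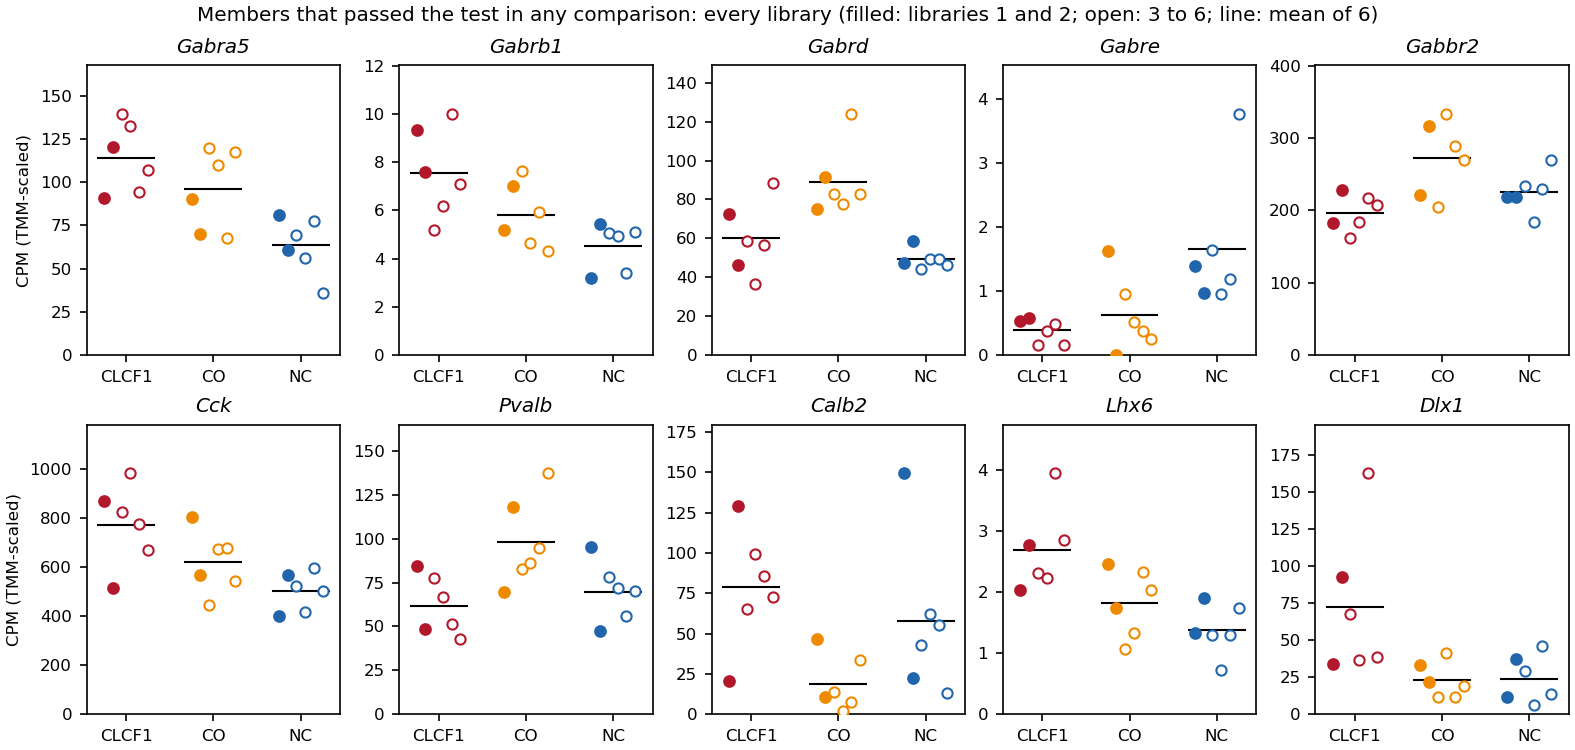
CPM of the 10 genes that passed in any comparison, in every library of CLCF1, CO and NC (linear axes from 0; filled points are libraries 1 and 2, open points 3 to 6, lines the mean of 6). Gabrd is high in CO, where every library is above every NC library; Gabra5 and Lhx6 in CLCF1 lie wholly above NC, while the CLCF1 libraries of Calb2 (20.6 to 129 CPM) and Dlx1 (34.1 to 163) overlap with those of NC.

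For the GABA-B receptor, 1 of the 2 subunits passed in CLCF1 against CO, where 17.0% of all genes passed, and none in the other comparisons. Gabbr2, which couples the receptor to G proteins, had 162, 196 and 229 CPM in CLCF1 libraries, 204, 279 and 334 in CO libraries and 184, 224 and 270 in NC libraries. CLCF1 and CO libraries overlapped between 204 and 229 CPM. Gabbr2 fell by a log2 fold change of -0.47 ± 0.13 in CLCF1 against CO (edgeR adjusted p = 0.0172), in every fit that left out 1 library, with -0.40 ± 0.23 in libraries 1 and 2, but the call was lost in libraries 3 to 6 alone (adjusted p 0.0819). Gabbr1, which binds GABA, averaged 1043 ± 196 CPM in CLCF1, 1190 ± 190 in CO and 1119 ± 127 in NC (SD, n = 6 each) and passed nowhere, with -0.19 ± 0.13 in CLCF1 against CO.

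None of the 5 genes of GABA synthesis, loading, uptake and breakdown passed in any comparison with edgeR, DESeq2 or limma-voom. With edgeR, 12.7% of all genes passed in CO against NC, 17.0% in CLCF1 against CO and 9.26% in CLCF1 against NC. In the edgeR fit 0 of 5 had an unadjusted p under 0.05. Gad1 and Gad2, the enzymes that make GABA from glutamate, averaged 344 ± 146 and 248 ± 64.5 CPM in CLCF1, 280 ± 92.0 and 253 ± 78.1 in CO, and 267 ± 105 and 278 ± 69.8 in NC (SD, n = 6 each). Their log2 fold changes lay between -0.17 ± 0.22 and 0.37 ± 0.32 over the 3 comparisons. Slc32a1, which loads GABA into vesicles, averaged 117 ± 29.5 CPM in CLCF1, 133 ± 57.6 in CO and 125 ± 58.3 in NC. Slc6a11, a GABA transporter found mainly on astrocytes, was 57.8 ± 32.5 CPM in CLCF1, 40.7 ± 16.1 in CO and 45.5 ± 20.0 in NC. Abat, the transaminase that breaks GABA down, was 97.2 ± 32.7 CPM in CLCF1, 118 ± 23.1 in CO and 127 ± 29.7 in NC. In all 5 genes the libraries of the 3 groups overlapped.

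Among the 3 interneuron peptides tested, Cck passed in CLCF1 against NC, where 9.26% of all genes passed. Sst and Vip passed in 0 comparisons. Cck, which marks a class of basket cells and is also made by many excitatory neurons, had 516, 799 and 984 CPM in CLCF1 libraries, 444, 621 and 805 in CO libraries and 399.8, 513 and 594 in NC libraries. CLCF1 and NC libraries overlapped because CLCF1 library 2 lay low. Cck rose in CLCF1 against NC by a log2 fold change of 0.63 ± 0.16 (edgeR adjusted p = 0.0186), with 0.50 ± 0.32 in libraries 1 and 2. The call ended only without CLCF1 library 4 (adjusted p 0.0504). Sst, the somatostatin gene, averaged 155 ± 101 CPM in CLCF1, 247 ± 64.2 in CO and 227 ± 80.8 in NC, and its CLCF1 libraries ran from 49.1 to 328 CPM, a 6.68-fold span. Its log2 fold change in CLCF1 against CO was -0.67 ± 0.35 (edgeR adjusted p = 0.186), and -1.04 without CLCF1 library 3, where it passed (adjusted p 0.0331). Vip averaged 45.1 ± 11.2 CPM in CLCF1, 41.2 ± 9.64 in CO and 42.5 ± 7.67 in NC, with fold changes near 0.

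Of the 3 calcium-binding proteins, 2 passed in CLCF1 against CO (against 17.0% of all genes), in opposite directions. Pvalb, the parvalbumin gene of fast-spiking cells, had 42.7, 59.0 and 84.3 CPM in CLCF1 libraries, 69.5, 90.5 and 138 in CO libraries and 47.6, 71.0 and 95.4 in NC libraries. CLCF1 and CO libraries overlapped, the 2 highest CLCF1 libraries lying among the lower CO libraries. Pvalb fell by a log2 fold change of -0.67 ± 0.20 in CLCF1 against CO (edgeR adjusted p = 0.0291), with -0.50 ± 0.43 in libraries 1 and 2. It was lost without CO 2 or 6 or CLCF1 2, 5 or 6 (adjusted p 0.0569 to 0.0644). Its CO against NC value was 0.49 ± 0.20 (edgeR adjusted p = 0.111). Calb1, the calbindin gene, averaged 153 ± 51.8 CPM in CLCF1, 181 ± 30.2 in CO and 164 ± 20.0 in NC and passed nowhere.

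Calb2, the calretinin gene, varied most within groups among the calcium-binding proteins. It had 20.6, 79.3 and 129 CPM in CLCF1 libraries, 1.72, 12.1 and 46.5 in CO libraries and 13.4, 49.0 and 150 in NC libraries. The lowest and the highest CLCF1 libraries were libraries 1 and 2, and the groups overlapped. Calb2 rose in CLCF1 against CO by a log2 fold change of 2.06 ± 0.64 (edgeR adjusted p = 0.0322), with 1.36 ± 1.44 in libraries 1 and 2, and was lost without CO 2, 3 or 5 or CLCF1 2, 4 or 5 (adjusted p 0.0504 to 0.0648). In CO against NC it had -1.60 ± 0.63 and did not pass (edgeR adjusted p = 0.0981), but did without CO library 1 (-2.10, adjusted p 0.0422).

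Of the 5 transcription factor and reelin genes, 2 passed: Dlx1 in both comparisons of CLCF1 and Lhx6 in CLCF1 against NC. Over all genes, 17.0% passed in CLCF1 against CO and 9.26% in CLCF1 against NC. Dlx1, a homeobox gene of forebrain interneuron progenitors that stays on in some adult interneurons, had 34.1, 53.4 and 163 CPM in CLCF1 libraries, 11.3, 20.5 and 41.4 in CO libraries and 6.17, 21.6 and 45.8 in NC libraries. CLCF1 libraries overlapped with both other groups, and CLCF1 library 5 was the highest. Dlx1 rose by a log2 fold change of 1.65 ± 0.49 in CLCF1 against CO (edgeR adjusted p = 0.0268), lost without CO 3, 5 or 6 or CLCF1 5 (adjusted p 0.0511 to 0.0822) and in libraries 3 to 6 alone (adjusted p 0.0952), and by 1.59 ± 0.49 in CLCF1 against NC (edgeR adjusted p = 0.0473). The second call was lost in 10 of 18 fits: without NC 1, 3, 4 or 6, CO 1, 2 or 6, or CLCF1 2, 3 or 5 (adjusted p 0.0508 to 0.128). It was also lost with library size alone (0.0511), the stricter filter (0.0547), only the CLCF1 and NC libraries (0.0649) and libraries 3 to 6 alone (0.173). In libraries 1 and 2 the values were 1.18 ± 0.65 and 1.36 ± 0.65. Dlx2, which lies 10.6 kb from Dlx1 on chromosome 3, averaged 10.3 ± 6.00 CPM in CLCF1, 3.56 ± 3.60 in CO and 4.11 ± 3.91 in NC. Its CLCF1 against CO value was 1.53 ± 0.64, which edgeR did not pass (adjusted p = 0.104) and DESeq2 (0.0464) and limma-voom (0.0479) did, as did edgeR without CO library 4 (0.0294).

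Lhx6, the factor of parvalbumin and somatostatin lineages, had 2.03, 2.54 and 3.95 CPM in CLCF1 libraries, 1.07, 1.89 and 2.45 in CO libraries and 0.730, 1.31 and 1.90 in NC libraries. Every CLCF1 library lay above every NC library, at 34 to 73 counts in CLCF1 and 13 to 41 in NC. Lhx6 rose by a log2 fold change of 0.96 ± 0.27 in CLCF1 against NC (edgeR adjusted p = 0.0323), with 0.54 ± 0.61 in libraries 1 and 2. It was lost without NC 1, 3, 4 or 5 or CLCF1 5 or 6 (adjusted p 0.0536 to 0.0759) and in libraries 3 to 6 alone (adjusted p 0.0989). Dlx5 and Reln passed nowhere. Dlx5 ran from 1.33 to 50.3 CPM within NC, with CO library 5 at 47.1 and NC library 5 at 50.3 above all others. Reln, the secreted glycoprotein of Cajal-Retzius cells and some adult interneurons, averaged 115 ± 45.7 CPM in CLCF1, 109 ± 110 in CO and 93.9 ± 136 in NC, where NC library 3 had 369.

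Markers of other tissue also differed between groups and between the libraries of a group. Choroid plexus genes (Ttr, Folr1, Kl and Clic6) were called higher in 4 of 4 in both CLCF1 comparisons, against 8.63% of all genes in CLCF1 against CO and 4.43% in CLCF1 against NC, and their summed level was 10.1 to 5883 CPM in CLCF1, 0.567 to 33.9 in CO and 1.74 to 104 in NC libraries. CLCF1 libraries 1 and 2 held the extremes, at 5883 and 10.1 CPM. Projection neuron genes of the olfactory bulb (Cdhr1, Doc2g, Eomes and Tbx21), a list chosen after values were seen, summed to 19.7 to 399 CPM in CLCF1, 0.763 to 270 in CO and 1.24 to 102 in NC, with 19.7 in CLCF1 library 1 and 397 in CLCF1 library 2. CLCF1 library 1 was also the lowest of its group for Calb2, Dlx1 and Lhx6. For Dlx2 the lowest was CLCF1 library 3 (4.79 CPM, against 4.83 in library 1). The highest Calb2 of all libraries was in NC library 1 (150 CPM), where the sum of the bulb projection neuron genes was 12.7 CPM. Bulb interneuron genes Sp8 and Scgn, also chosen after values were seen, summed to 5.54 to 70.9 CPM in CLCF1, 0.567 to 29.1 in CO and 0.169 to 6.67 in NC. The olfactory bulb holds many Calb2 and Dlx1 cells as background knowledge. The part of such tissue in the values of Calb2, Dlx1, Dlx2 and Lhx6 was not tested.

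Beside Gabrd and Gabra5 in CO against NC, 4 of 7 excitatory markers of cortex and hippocampus were higher, against 6.32% of all genes. Among them was Slc17a7 (0.54 ± 0.13, edgeR adjusted p = 0.0141, and 0.50 ± 0.22 in libraries 1 and 2), and they summed to 3722 to 4874 CPM in CO against 2434 to 3416 CPM in NC libraries. Of 8 pan-neuronal genes, 2 were higher, and the 8 summed to 5505 to 5897 CPM in CO and 4426 to 4966 in NC. Of the hypothalamic genes tested, 3 of 6 were higher and 1 lower, and the list summed to 6.45 to 303 CPM in CO and 7.87 to 14.1 in NC. Fibroblast and meningeal genes were lower in 4 of 4, against 6.40% of all genes, at 56.7 to 128 CPM in CO and 231 to 328 in NC libraries. Genes of thalamus, midbrain and brainstem neurons were lower in 3 of 6 tested, at 30.2 to 76.2 CPM in CO and 40.1 to 348 in NC. Of 6 astrocyte and 6 microglia genes 1 each was lower, and of 8 striatal, 7 cerebellar, 6 oligodendrocyte, 2 endothelial and 4 choroid plexus genes 0 passed with edgeR. The striatal genes summed to 1222 to 2628 CPM in CO and 259 to 1541 in NC.

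Beside Gabrd, Gabbr2, Pvalb, Calb2 and Dlx1 in CLCF1 against CO, fibroblast and meningeal genes were higher in 2 of 4 (124 to 246 CPM in CLCF1, 56.7 to 128 in CO), against 8.63% of all genes. Genes of thalamus, midbrain and brainstem were higher in 2 and lower in 1 of 6 (45.9 to 95.6 CPM in CLCF1, 30.2 to 76.2 in CO). Hypothalamic genes were higher in 1 and lower in 2 of 6 (7.2 to 59.5 CPM in CLCF1, 6.45 to 303 in CO). Of the pan-neuronal genes 1 was higher and 1 lower, and 1 of 7 excitatory, 1 of 8 striatal and 1 of 6 oligodendrocyte genes were lower, against 8.34% of all genes. The excitatory genes summed to 3071 to 4244 CPM in CLCF1 and 3722 to 4874 in CO, the striatal genes to 300.3 to 1538 CPM in CLCF1 and 1222 to 2628 in CO, and the oligodendrocyte genes to 7796 to 16545 CPM in CLCF1 and 10196 to 20537 in CO. Beside choroid plexus, CLCF1 against NC had calls in the lists of thalamus, midbrain and brainstem (3 of 6 lower), hypothalamus (1 of 6 higher), astrocytes (1 of 6 lower) and cerebellum (1 of 7 lower), against 4.43% of all genes higher and 4.84% lower. The dopamine genes Th and Slc6a3 were also uneven, Slc6a3 running from 0 to 3.80 CPM in CLCF1, 0 to 0.322 in CO and 0.648 to 47.8 in NC libraries. Slc6a3 was called lower in CO against NC (edgeR adjusted p = 0.000865) and in CLCF1 against NC (0.00967). It was called higher in CLCF1 against CO (0.0189). No left-out library ended these calls. How far the make-up of the tissue enters Gabrd, Gabra5, Gabbr2 and Pvalb was not tested.

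Other genes of the pathway moved in small numbers. Of 1 rho subunit gene tested, Gabrr2 fell in CLCF1 against NC (-1.06 ± 0.32, edgeR adjusted p = 0.0448), with -0.96 ± 0.65 in libraries 1 and 2. Its adjusted p was over 0.05 in 9 of 18 fits that left out 1 library: NC 1, 3, 4, 5 or 6, or CLCF1 2, 3, 5 or 6 (up to 0.0880). Of 13 anchoring and trafficking genes, 1 rose in CO against NC, Trak1, a motor adaptor that carries receptors and mitochondria (0.56 ± 0.16, and 0.34 ± 0.22 in libraries 1 and 2), which is 7.69% against 12.7% of all genes, and 0 passed in the other comparisons. Of 10 genes of GABA and glutamine metabolism and transport, 3 fell in CO against NC (30%, against 12.7% of all genes), all glutamine transporters: Slc38a1 (-1.04 ± 0.30), Slc38a3 (-0.76 ± 0.22) and Slc38a5 (-2.28 ± 0.49). Slc38a3 alone rose in CLCF1 against CO (0.86 ± 0.22, and 0.55 ± 0.20 in libraries 1 and 2; 1 of 10, against 17.0% of all genes), and 0 of 10 passed in CLCF1 against NC. The calls in CO against NC were lost for Trak1 without NC 4, 5 or 6 or CO 3 (adjusted p up to 0.0694), for Slc38a1 without NC 3, 4 or 5 or CO 3, 4 or 6 (up to 0.0585), and for Slc38a3 without NC 1 or 4 or CO 4 or 6 (up to 0.0579). In libraries 1 and 2, CO against NC gave -0.42, -0.73 and -1.78 for Slc38a1, Slc38a3 and Slc38a5.

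Of 25 other interneuron genes, 4 rose in CO against NC (16%, against 12.7% of all genes), 7 fell in CLCF1 against CO (28%, against 17.0%), and 2 rose and 3 fell in CLCF1 against NC (20%, against 9.26%). Among those that rose in CO against NC were the cholecystokinin receptor gene Cckbr (1.33 ± 0.27), the enkephalin gene Penk (1.12 ± 0.36) and Crhbp (0.44 ± 0.13). Among those that fell in CLCF1 against CO were the somatostatin receptor gene Sstr2 (-1.45 ± 0.28), the neuropeptide Y receptor gene Npy2r (-3.32 ± 0.65) and Lhx8 (-5.96 ± 1.10), a factor of cholinergic and striatal interneurons. Lhx8 had 0 to 6 counts in CLCF1, 16 to 319 in CO and 0 to 146 in NC libraries. Crh (1.42 ± 0.33) and Cckbr (0.96 ± 0.27) rose in CLCF1 against NC, and Lhx8, Npy2r and Sstr2 fell there too. Calls were lost for Penk without NC 1, 3, 5 or 6, CO 1, 4, 5 or 6, or CLCF1 1, 4 or 6 (adjusted p up to 0.115), for Crhbp without NC 1, 3, 4 or 5 or CO 3 or 6 (up to 0.0856), for Cckbr in CLCF1 against NC without NC 1, 3, 4 or 6 or CLCF1 3 or 5 (up to 0.0788), and for Sstr2 in CLCF1 against NC without NC 4 (0.0568). The medians over the 25 were 0.36 in CO against NC, -0.37 in CLCF1 against CO and -0.07 in CLCF1 against NC. In libraries 1 and 2, CO against NC gave 1.13 for Cckbr, 0.80 for Penk and 0.36 for Crhbp, and CLCF1 against CO gave -1.07 for Sstr2, -2.60 for Npy2r and -4.49 for Lhx8. There CLCF1 against NC gave 0.91 for Crh, 0.60 for Cckbr, -0.52 for Sstr2, -3.12 for Npy2r and -4.28 for Lhx8. With libraries 1 and 2 the medians were 0.25, -0.30 and -0.07, and none of the 25 passed there with edgeR. Kctd8, Kctd12, Kctd16 and Cort were not analysed here.

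Levels of the 31 genes were compared per length, as mean CPM per kilobase of the gene length in the table. Cck stood highest, at 783 ± 165 in CLCF1, 627 ± 128 in CO and 507 ± 79.4 in NC libraries (SD, n = 6 each). Sst followed at 252 ± 165 in CLCF1, 402 ± 105 in CO and 371 ± 132 in NC, and its range overlapped with that of Cck in all 3 groups. Gabbr1 was at 155 ± 29.1 in CLCF1, 177 ± 28.3 in CO and 166 ± 18.9 in NC, above its partner Gabbr2 at 36, 49.8 and 41.3 in CLCF1, CO and NC. The alpha subunits with the highest NC level per length were Gabra2 at 29.8 and Gabra4 at 29 CPM per kilobase, whose library ranges overlapped. Gabrd stood at 33.4 CPM per kilobase in CLCF1, 49.7 in CO and 27.5 in NC, so that in CO its mean exceeded that of Gabra4 (34.3) and Gabra5 (36). Of the receptor genes among the 31, those lowest per length were Gabra6, Gabre and Gabrq, whose highest group mean was 0.433 CPM per kilobase, for Gabrq in NC.

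**Figure D4:**
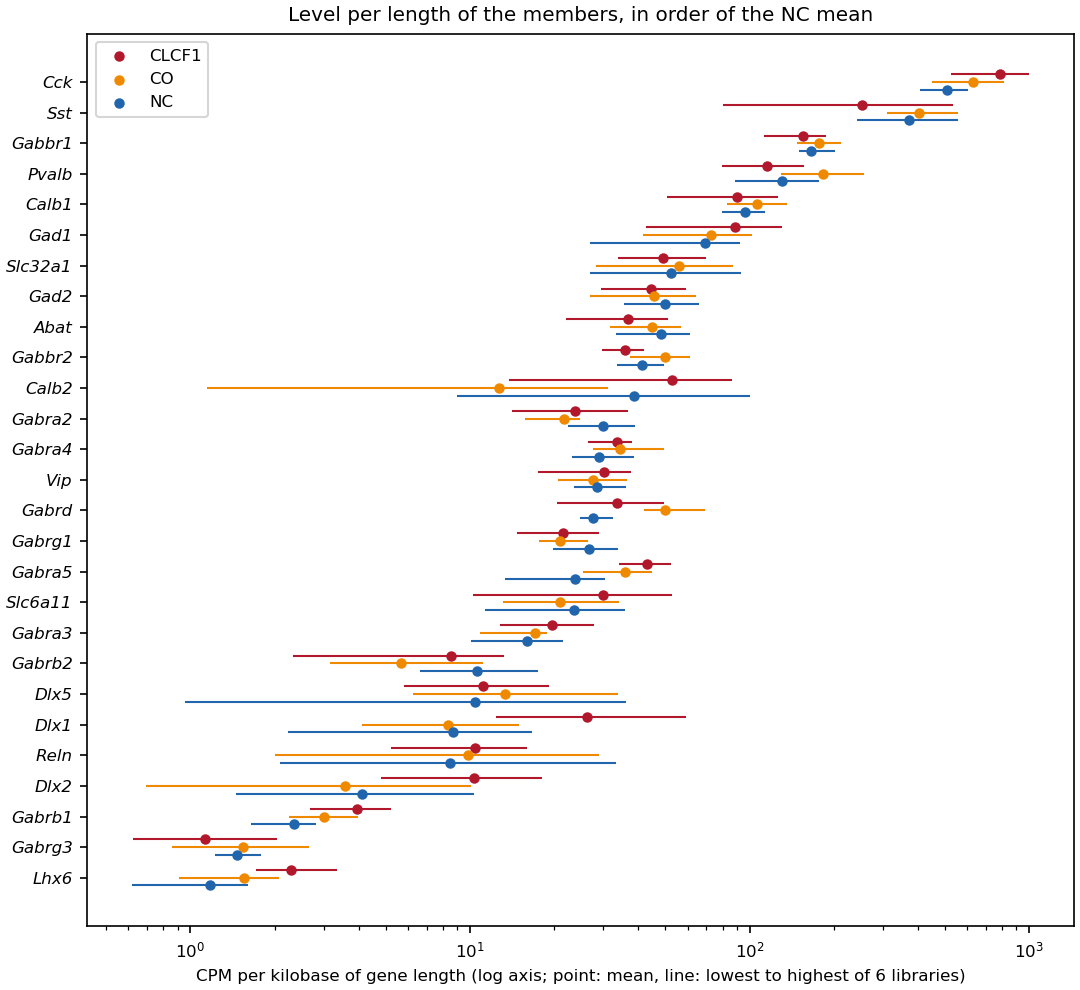
Mean CPM per kilobase of gene length of the 27 genes with the highest NC mean among the 31, by group, with lines for the lowest to highest library (log axis, CLCF1 above CO above NC within a gene). Cck, Sst and Gabbr1 are at the top, Gabrb1, Gabrg3 and Lhx6 at the bottom, and the widest ranges are those of Calb2, Dlx5 and Reln.

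Promoter sequences from RefSeq (build GRCr8, whose coordinates are not those of the count table) matched 24 of the 31 genes. The 250 bases before the annotated start are printed 5′ to 3′ in gene orientation for Gabrd and Gabra5, the pair that rose in CO against NC, and for Pvalb and Dlx1, which moved in CLCF1 against CO in opposite directions. Capitals mark GGGCGG, the GC box, and TGACG, the core of the cyclic AMP response element, on either strand, so that CCGCCC and CGTCA are the same motifs read on the other strand; neighbouring GC boxes can overlap.
Gabrd, chr5:171252710-171252959, minus strand: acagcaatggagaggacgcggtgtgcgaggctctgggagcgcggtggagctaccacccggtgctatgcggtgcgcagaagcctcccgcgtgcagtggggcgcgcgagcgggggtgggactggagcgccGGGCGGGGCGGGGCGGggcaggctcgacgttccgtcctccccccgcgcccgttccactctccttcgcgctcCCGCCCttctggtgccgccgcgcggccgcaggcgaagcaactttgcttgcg
Gabra5, chr1:117516607-117516856, minus strand: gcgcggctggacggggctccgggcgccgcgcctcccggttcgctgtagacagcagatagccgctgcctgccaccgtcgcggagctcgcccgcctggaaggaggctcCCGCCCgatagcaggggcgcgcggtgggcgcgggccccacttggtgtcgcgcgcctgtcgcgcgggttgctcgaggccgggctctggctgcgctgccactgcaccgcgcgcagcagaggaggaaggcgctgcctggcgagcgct
Pvalb, chr7:111666290-111666539, minus strand: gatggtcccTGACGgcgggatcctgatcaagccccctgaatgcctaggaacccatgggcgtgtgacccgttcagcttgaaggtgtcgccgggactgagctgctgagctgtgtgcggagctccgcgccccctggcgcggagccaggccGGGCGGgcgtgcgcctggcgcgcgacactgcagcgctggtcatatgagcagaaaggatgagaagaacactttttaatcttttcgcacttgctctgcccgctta
Dlx1, chr3:76763614-76763863, plus strand: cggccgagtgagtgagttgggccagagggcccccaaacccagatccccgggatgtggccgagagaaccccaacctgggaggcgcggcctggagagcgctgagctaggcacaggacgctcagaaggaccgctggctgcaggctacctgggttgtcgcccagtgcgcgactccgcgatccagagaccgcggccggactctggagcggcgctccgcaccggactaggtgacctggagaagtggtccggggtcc

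GGGCGG was found in 15 of the 24 promoters, against 30.5% of all 33469 promoters of this length, and Gabrd held 4 matches, some of them overlapping. These promoters were not matched for GC content, so the part of base composition in this count was not tested. TGACG was found in 4 of 24, those of Gabbr2, Pvalb, Slc32a1 and Vip, against 18.2% of all. TATAAA was found in 3 of 24, against 12.9% of all. The full element TGACGTCA (1.59% of all) and the AP-1 motif TGANTCA (6.34% of all) were found in 0 of the 24, which says only that these letters are not in the 250 bases. With the 50 bases after the start included, TGACGTCA was found in the Sst sequence alone among the 24, against 1.83% of all, with its first base at position 3, counted from the annotated start as position 1. The GC content was 74.0% in Gabrd, 76.4% in Gabra5, 62.8% in Pvalb and 69.2% in Dlx1, against a median of 51.2% over all promoters.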

How the data were processed

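The deposited values are raw counts of reads per gene, whole numbers with no normalization by the authors, in 1 table for all 18 libraries that also gives symbols, positions and lengths. Per the labels' protocols, 1.3 µg of total RNA was used for each library, with an RNeasy kit and a SMARTER mRNA-Seq kit. No source says whether strand was kept, and a gene may then share reads with one that overlaps it or lies antisense. The aligner and the counter were not given in the sources used here. Builds named in the submitters' processing notes are GRCm38 and mm10, both of mouse, although gene IDs and symbols are of rat, so the table's coordinates are given with no build.

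Groups came from sample titles and genotype and treatment labels. Genes were matched by symbol. The test was edgeR 4.0.16, run in R 4.3.3 (TMM scaling, filterByExpr, which removed 18292 of 34873 genes, 1 robust quasi-likelihood fit over 18 libraries, Benjamini-Hochberg over 16581 genes, threshold 0.05). Loci with no symbol, 2328 in all, took 1.21% to 1.62% of a library's counts and were kept. The SE is the absolute fold change (log2) over the square root of F. CPM used TMM library sizes, and 1 CPM was 17.6 counts at the median library. Counts per library were 15.1 to 20.3 M, and the biological coefficient of variation was 0.312. Replicate pairs differed by more than sampling noise (chi-square per degree of freedom 39.1 to 70.8, genes with 20 counts or more). The scripts were tested on simulated data.

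The genes, the other lists, the tests and the alternatives were chosen with earlier results of these data known. Genes that passed in any comparison are given in full, and the others by means or ranges. From other lists, up to 4 passing genes with the smallest p per comparison are named. Not every gene that this rule selects is reported here. The alternatives were DESeq2 size factors, library size alone, no filter, a stricter filter (a mean CPM of 1, with 10 counts in 6 libraries), DESeq2 1.42.0, limma-voom 3.58.1 with quality weights, the library number as a block, only the 2 groups compared, libraries 1 and 2 alone, libraries 3 to 6 alone, and leaving out each library. Promoters were read from RefSeq, 250 bases before the annotated start.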

Additional observations from a re-analysis of the deposited data

Results flagged for a closer look

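In 13 of 93 gene-by-group sets of 6 libraries, 1 library lay far from the other 5. Its gap to the nearest one exceeded 0.625 of the whole range. Chance gives about 1 in 20 such sets if values follow a normal distribution, which CPM near 0 need not do. In CO, the library far from the rest was library 3 for Gabra2 (32.5 CPM, the others 45.0 to 51.0) and library 5 for Gabra3 (27.3 CPM, the others 45.0 to 47.2), both low. High CO libraries were library 6 for Gabra4 (218 CPM), library 5 for Gabrd (124 CPM) and for Dlx5 (47.1 CPM), and library 1 for Gabrq (1.32 CPM) and Npy (0.299 CPM), the last pair at counts near 0. High NC libraries were library 2 for Gabrd (58.4 CPM), library 6 for Gabre (3.77 CPM), library 5 for Gabrq (2.83 CPM) and Dlx5 (50.3 CPM), library 1 for Calb2 (150 CPM) and library 3 for Reln (369 CPM). No set of CLCF1 libraries met this measure. The fold change of Gabre in CLCF1 against NC was lost without NC library 6, and that of Gabrd in CLCF1 against CO without CO library 5.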

How the results depend on the processing

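No fold change of the 28 genes tested that passed turned its sign under any alternative run. The genes that passed in CO against NC numbered 2, and 1 with library size alone, the stricter filter, limma-voom or libraries 3 to 6 alone, Gabrd in each case. With libraries 1 and 2 alone 0 passed in each of the 3 comparisons, and with libraries 3 to 6 alone 2 passed in CLCF1 against CO and 3 in CLCF1 against NC. Leaving out 1 library gave 1 to 3 in CO against NC, 1 to 6 in CLCF1 against CO and 2 to 6 in CLCF1 against NC, with the lowest of the last pair both without CLCF1 library 5. Over all genes, CO against NC had 2110 calls, with 4291 without the filter, 4081 with DESeq2, 4 in libraries 1 and 2 and 918 in libraries 3 to 6. CLCF1 against CO had 2814, with 5645, 5254, 8 and 1436 in the same order, and CLCF1 against NC had 1536, with 4292, 3844, 2 and 736. Fewer libraries enter the last 2 settings; other causes were not tested. Leaving out 1 library gave 1672 to 2169, 2427 to 3033 and 1219 to 1798 calls over all genes in the 3 comparisons, taken in the same order. At an unadjusted p under 0.05, libraries 1 and 2 gave 594, 817 and 418 genes.

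The library numbers share no stated source. Same-number libraries correlated at 0.00431 to 0.149 for numbers 1 and 2, and at -0.0283 to 0.0228 for the other numbers. Of 18 libraries, 3 were closest to their own number in both other groups. This count was not compared with chance, so it cannot show whether the numbers pair the libraries. With the library number as a replicate block, 1 gene passed in CO against NC, 4 in CLCF1 against CO and 3 in CLCF1 against NC, and 1944, 2787 and 1477 of all genes. Calls that the block ended were those of Gabra5 in CO against NC (edgeR adjusted p 0.0766), Dlx1 in CLCF1 against CO (0.0962), and Gabrb1 (0.0597), Gabre (0.0798) and Dlx1 (0.0583) in CLCF1 against NC. Counts were low for Gabra6 (0 to 18 per library), Gabrq (0 to 50) and Npy (0 to 5), and the cause was not tested.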
